A study of Homo sapiens with 16 samples.

Results

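SCG2 rich cells are the cells of the human neuroblastoma line SK-N-AS in which SCG2 made up 0.15% or more of all counts, and they were set against SCG2 negative cells, in which the gene had 0 counts. Only cells with a total of 1500 counts or more were used, which left 431 of 603 cells. Of these, 52 were SCG2 rich, 280 lay between the groups with at least 1 SCG2 count, and 99 were SCG2 negative. SCG2 and the cell total chose the cells, so both are given as a description, and every other gene was left free to differ or not.

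SK-N-AS is an established line without MYCN amplification. Its cells were grown untreated in serum medium, so that both groups share the line, the culture and the lack of treatment, and were sorted singly into plates. RNA was measured with MARS-seq, which counts the 3′ ends of polyadenylated transcripts in each well under its own barcode. The labels list 16 samples but the columns of the count table carry no sample, so each group is 1 pool of cells, no replicate exists, and no p-value is given.

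SCG2 encodes secretogranin II, a member of the granins, acidic proteins that are packed into the dense-core vesicles of endocrine cells and neurons. Granins help to form the vesicle, are cut by prohormone convertases into smaller peptides, and are released together with hormones or catecholamines when the cell is stimulated. In the sympathoadrenal lineage, from which neuroblastoma arises, granins are classical markers of secretory differentiation.

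The SCG2 share ran over 0.1504%, 0.195% and 0.406% (lowest, median and highest) in the 52 SCG2 rich cells, which is 3, 5.5 and 27 counts a cell. The cell just inside the limit had 5 SCG2 counts of 3324 (0.1504%), and the cell just outside it had 3 of 2010 (0.1493%). At the other end, 99 of the cells between the groups had a single SCG2 count. When each cell was thinned at random to 1500 counts, SCG2 rich cells kept 0, 3 and 6 SCG2 counts (lowest, median and highest), and 2 of 52 were at 0. Among the cells between the groups 65 of 280 were then at 0, so counting error moves cells across both limits.

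Totals differed between the groups. SCG2 rich cells had 1508, 2547.5 and 13400 counts (lowest, median and highest), cells between the groups 1507, 2693 and 42404, and SCG2 negative cells 1502, 2106 and 4733. The groups hold 168510 and 232801 counts in all (SCG2 rich and SCG2 negative cells). Of the SCG2 rich cells 5, with totals of 13400, 12719, 7670, 6643 and 6415, were deeper than every SCG2 negative cell and held 27.8% of the SCG2 rich counts. The 3 deepest of them stand among the last 3 columns of the 2 runs of barcodes in the table, which are called barcode sets 1 and 2 (316 and 287 cells). Whether each of these wells held a single cell was not tested. Values without all 5 are given for the named genes and lists that lead the results, and a plot shows them for the 30 named genes. After thinning to 1500 counts the groups were alike in complexity, with a median of 936 genes a cell in SCG2 rich cells, 926 between the groups and 917 in SCG2 negative cells. Ribosomal protein genes took 16.5% of counts in SCG2 rich and 16.9% in SCG2 negative cells.

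**Figure D1:**
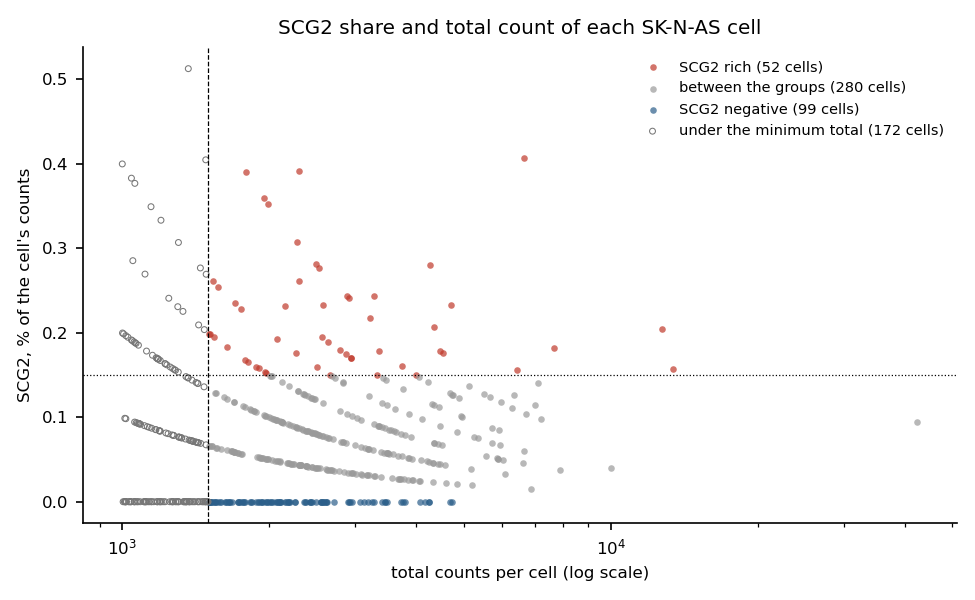
Each point is 1 of 603 SK-N-AS cells, with its total count on a log axis and SCG2 as a percent of that total, and the dashed and dotted lines mark 1500 counts and 0.15%. SCG2 rich cells reach 13400 counts whereas no SCG2 negative cell lies above 4733, and at low totals the points follow curves because each curve is 1 whole number of SCG2 counts.

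The level of a gene in a group is its summed count relative to the summed total of the cells, with SCG2 left out, on the usual CPM scale. A difference is the log2 ratio of CPM in SCG2 rich over SCG2 negative cells, and its 95% interval covers counting error only, not the spread between cells, plates or cultures. Of 27044 rows, 1514 genes had 50 or more counts over both groups together, and these hold 72.4% of the counts. Their median log2 ratio was -0.02. At a fold of 1.5 or more, 102 genes (6.74%) were higher and 105 (6.94%) were lower in SCG2 rich cells. Without the 5 deep cells the shares were 5.13% and 6.64% of the 1326 genes that then had enough counts. Scaling by TMM gave 81 higher and 155 lower genes, and median-of-ratios scaling gave 86 and 150, so the split between the directions depends on the scaling, which moved the median of all genes to -0.10 and -0.08.

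The summed granin list was higher in SCG2 rich cells, mostly through GNAS, which gave 382 of its 518 counts there, while none of its members with 50 or more counts passed 1.5-fold. The list without SCG2 (7 rows) had 3081 CPM in SCG2 rich cells, 2469 CPM between the groups and 2384 CPM in SCG2 negative cells, a log2 ratio of 0.37 (0.19 to 0.55). It was at 0.49 (0.25 to 0.73) in barcode set 1, at 0.23 (-0.03 to 0.50) in set 2, where the interval includes 0, and at 0.26 (0.06 to 0.46) without the deep cells. Among the cells with totals under 1500, which the groups do not use, 43 met the SCG2 rich limit and 77 had no SCG2 count, and in these the list was higher by 0.85 (0.53 to 1.17). Only 2 members had 50 or more counts, so the list's median of 0.33, set beside -0.02 over all genes, rests on GNAS and VGF.

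GNAS gave most of those counts. Its locus encodes the stimulatory G protein alpha subunit, which drives cyclic AMP production, and also the granin-like protein NESP55, and the row does not tell these transcripts apart. Thinned cells had 0, 3 and 15 GNAS counts (lowest, median and highest) in SCG2 rich cells and 0, 2 and 14 in SCG2 negative cells. The ranges of the groups overlap almost wholly and the median cell is higher by 1 count. Summed levels were 2272 CPM in SCG2 rich, 1740 CPM between and 1753 CPM in SCG2 negative cells, a log2 ratio of 0.37 (0.17 to 0.58). Without the deep cells it was 0.21 (-0.02 to 0.44), an interval that includes 0. In the cells under 1500 counts the ratio was 0.63 (0.27 to 1.00), from 116 counts in SCG2 rich and 139 in SCG2 negative cells.

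VGF, a neuropeptide precursor counted among the extended granin family, and CHGA, which encodes chromogranin A, are both textbook targets of the cyclic AMP response element binding protein. The sequences upstream of their starts are printed because they hold the cyclic AMP response element TGACGTCA, which is in capitals. The windows are the 250 bases before the annotated start, read 5′ to 3′ on the strand of the gene (RefSeq, GRCh38.p14), at chr7:101165570-101165819 on the minus strand for VGF and chr14:92922900-92923149 on the plus strand for CHGA.
VGF: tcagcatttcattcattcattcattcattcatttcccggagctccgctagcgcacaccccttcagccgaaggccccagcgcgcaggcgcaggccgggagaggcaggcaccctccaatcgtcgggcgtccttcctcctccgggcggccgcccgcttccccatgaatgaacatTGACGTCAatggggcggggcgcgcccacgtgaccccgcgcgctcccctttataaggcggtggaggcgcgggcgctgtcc
CHGA: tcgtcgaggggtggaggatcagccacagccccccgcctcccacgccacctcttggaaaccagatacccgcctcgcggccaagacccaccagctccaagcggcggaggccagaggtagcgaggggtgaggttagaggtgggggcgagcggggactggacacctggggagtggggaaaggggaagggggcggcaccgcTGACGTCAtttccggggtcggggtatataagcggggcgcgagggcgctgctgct

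The element begins 79 bases before the start of VGF and 54 bases before the start of CHGA. The same letters, which read alike on both strands, occur in 578 of 35116 windows of that length (1.65%). They were not found in the windows of GNAS, DDC or PAM. Among the 21 of 30 named genes with a window, only ZNF330 held them, and it is among the genes named as lower. A match describes these letters and is no measure of binding. The list of immediate early genes and targets of the cyclic AMP response element binding protein summed to -0.16 (-0.43 to 0.10). In the cells under 1500 counts it was at 0.06 (-0.42 to 0.54). Of its 3 tested genes 0 were higher and 1 was lower by 1.5-fold, against 6.74% and 6.94% of all genes.

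VGF had 737 CPM in SCG2 rich cells, 506 CPM between the groups and 601 CPM in SCG2 negative cells. After thinning, 53.8% of SCG2 rich cells had a VGF count (exact 95% interval 39.5 to 67.8%), against 38.4% of SCG2 negative cells (28.8 to 48.7%). The log2 ratio of 0.29 (-0.07 to 0.65) has an interval that includes 0, and the cells between the groups lie below both. In the cells under 1500 counts VGF was higher by 1.32 (0.55 to 2.12), with 35 counts in SCG2 rich and 26 in SCG2 negative cells.

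CHGA was too thinly counted for the minimum, with 8 counts in SCG2 rich and 1 in SCG2 negative cells, a log2 ratio of 3.47 (0.57 to 8.94). Of the 8 counts, 75.0% came from 3 cells. The cells under 1500 counts repeated the direction with 9 counts in SCG2 rich and 1 in SCG2 negative cells. CHGA was 163.6 CPM between the groups, above SCG2 rich cells at 47.6 CPM, so its summed level did not follow the SCG2 share in order. Of its 151 counts between the groups, 68.9% came from 3 cells. CHGB, the chromogranin B gene, had 0 counts in SCG2 rich and 2 in SCG2 negative cells.

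**Figure D2:**
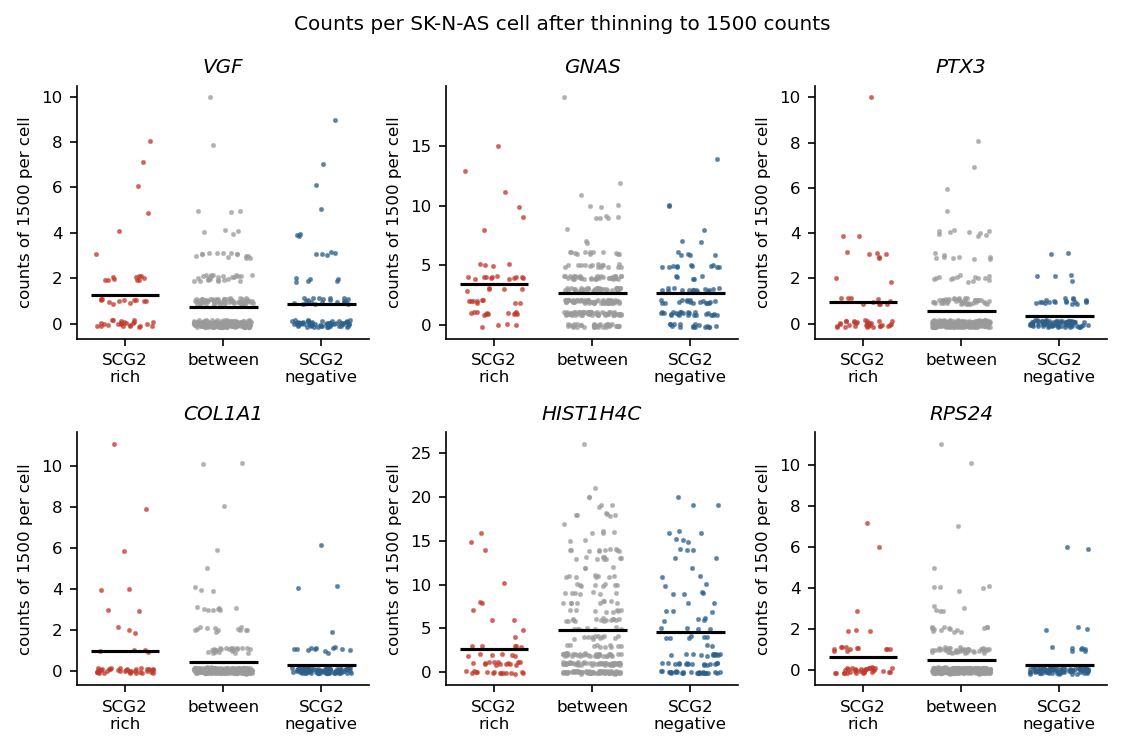
Counts per cell after each cell was thinned to 1500 counts, for 6 genes in SCG2 rich, between and SCG2 negative cells, with a bar at the mean and points jittered sideways and slightly up and down. In every panel the groups overlap, and VGF reaches 8 counts in SCG2 rich and 9 in SCG2 negative cells. The highest PTX3 count is 10 in SCG2 rich cells, 8 between the groups and 3 in SCG2 negative cells.

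Of the enzymes that mature granin peptides, the prohormone convertases PCSK1 and PCSK2 were among the 6 of 11 members of the processing list with 0 counts in both groups. FURIN, another convertase, had 8 counts in SCG2 rich and 16 in SCG2 negative cells, PCSK7 had 12 and 7, and CPE, a carboxypeptidase, had 2 and 4. The 1 member with enough counts was PAM, which amidates the carboxyl end of neuropeptides, with 255.7 CPM in SCG2 rich cells, 122 CPM between the groups and 60.1 CPM in SCG2 negative cells. Its log2 ratio was 2.09 (1.19 to 3.07), and 26.9% of thinned SCG2 rich cells had a PAM count, against 9.09% of SCG2 negative cells. No thinned cell of either group had more than 2 PAM counts. The ratio was 1.24 in barcode set 1, 3.90 in set 2 and 1.83 without the deep cells. In the cells under 1500 counts PAM went the other way at -1.19 (-3.22 to 0.42), with 4 counts in SCG2 rich and 17 in SCG2 negative cells.

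Catecholamine genes were sparse. TH and DBH, which encode the first enzyme of catecholamine synthesis and the one that makes noradrenaline, had 0 counts in both groups. DDC, the decarboxylase between them, had 363 CPM in SCG2 rich cells, 164 CPM between the groups and 206 CPM in SCG2 negative cells, a log2 ratio of 0.82 (0.25 to 1.39). The ratio was 1.37 in barcode set 1, 0.41 in set 2 and 0.48 (-0.38 to 1.33) in thinned cells, where the interval includes 0. It was higher again in the cells under 1500 counts, by 1.52 (0.44 to 2.65), although 3 cells held 47.5% of the DDC counts in SCG2 rich and 54.2% in SCG2 negative cells.

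Hormone genes did not follow SCG2 together, and their sum, at -0.15 (-0.41 to 0.11), had opposite signs in the barcode sets, with 0.46 (0.11 to 0.80) in set 1 and -0.91 (-1.32 to -0.50) in set 2. The row that joins INS-IGF2 and INS, a locus that includes the fetal growth factor gene IGF2, was at 0.07 (-0.33 to 0.46), VIP at -0.61 (-1.51 to 0.24) and GCG at -0.79 (-1.77 to 0.11), which was -0.32 without the deep cells. In the cells under 1500 counts the sum was at 0.77 (0.30 to 1.23), INS-IGF2 was at 1.23 (0.51 to 1.96), VIP at 2.03 (0.39 to 3.91) and GCG had 5 counts in SCG2 rich and 0 in SCG2 negative cells. These genes are held by few cells, since the top 3 cells gave 67.7% of INS-IGF2 counts in SCG2 rich and 56.7% in SCG2 negative cells.

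The 15 genes named as higher have the highest lower bounds of the interval among the 1514 genes, and were therefore chosen by this contrast. They were RPS24, PAM, RPL26, PTX3, RPS27A, COL1A1, C21orf33, SLIRP, MTRNR2L1, PLAT, HSP90B1, PPIA, B2M, ACTB and PRDX1, with log2 ratios from 0.75 for ACTB to 2.40 for RPS24. PTX3 encodes a soluble pattern recognition protein, COL1A1 a chain of type I collagen, and PLAT the tissue plasminogen activator.

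PTX3 had 642 CPM in SCG2 rich cells, 384 CPM between the groups and 210.5 CPM in SCG2 negative cells, a log2 ratio of 1.61 (1.11 to 2.13). It was 1.80 in barcode set 1, 1.39 in set 2 and 1.55 without the deep cells. In the cells under 1500 counts PTX3 was at -0.45 (-1.41 to 0.45), with 15 counts in SCG2 rich and 38 in SCG2 negative cells. Thinned cells had 0, 0 and 10 counts (lowest, median and highest) in SCG2 rich cells and 0, 0 and 3 in SCG2 negative cells, so most cells of both groups had none.

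COL1A1 had 529 CPM in SCG2 rich cells, 279.5 CPM between the groups and 193 CPM in SCG2 negative cells, a log2 ratio of 1.45 (0.92 to 2.004) that was 1.53 without the deep cells. PLAT had 494 CPM, 376 CPM and 219 CPM in the same order, a log2 ratio of 1.17 (0.65 to 1.70). PLAT counts were concentrated, with 55.4% in 3 SCG2 rich cells against 19.6% in 3 SCG2 negative cells. PLAT was also higher in the deeper than in the shallower of the cells between the groups, by 0.91 (0.52 to 1.30). Its ratio between the groups was 1.51 within 4 bins of total, 1.42 without the deep cells and 1.29 in thinned cells. The part of depth in the PLAT ratio was not tested.

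HSP90B1, an endoplasmic reticulum chaperone counted in a row joint with MIR3652, was at 1.05 (0.62 to 1.49), with ratios of 1.06 in barcode set 1 and 1.16 in set 2. In thinned cells the HSP90B1 ratio was 0.50 (-0.13 to 1.12), an interval that includes 0. The share of thinned cells with a count was nearly equal, at 42.3% of SCG2 rich and 40.4% of SCG2 negative cells. PRDX1, a peroxide-reducing enzyme, was at 1.08 (0.56 to 1.61), and here 48.1% of SCG2 rich and 30.3% of SCG2 negative cells had a count. SLIRP, an RNA-binding protein of mitochondria, was at 1.35 (0.69 to 2.03), which was 0.84 without the deep cells, and C21orf33 at 1.57 (0.78 to 2.42), which was 1.26 without them.

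Several of the highest ratios rested on the deep cells. For RPS24, RPL26, RPS27A, MTRNR2L1 and B2M most of the SCG2 rich counts came from these 5 cells, which was so for 2.05% of all 1514 genes. RPS24, a ribosomal protein gene, had 118 counts in SCG2 rich cells and 31 in SCG2 negative cells, and the 3 deepest cells alone gave 54, 10 and 21 of the 118. Its log2 ratio was 2.40 (1.82 to 3.02) with them and 0.94 (0.17 to 1.71) without the 5 deep cells. Without them RPL26 was at 0.81 against 1.63 with them, and RPS27A at 1.28 against 1.88. ACTB, the cytoskeletal actin, was at 0.75 with them and 0.48 without, which is under 1.5-fold, and PPIA, cyclophilin A, at 1.28 with them and 0.89 without. MTRNR2L1, a nuclear copy that closely resembles the mitochondrial 16S ribosomal RNA gene, was at 0.89 (0.68 to 1.09) with the deep cells and 0.14 (-0.12 to 0.40) without them. B2M, the light chain of MHC class I, was at 1.09 (0.58 to 1.61) with them and 0.39 (-0.25 to 1.02) without. RPS24, RPL26, RPS27A, PPIA and ACTB have processed pseudogenes, and reads could have been split among such copies.

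Ribosomal protein genes as a group did not share the direction of RPS24. Of the 65 tested, 6 were higher and 0 lower by 1.5-fold, against 6.74% and 6.94% of all genes. Their median was -0.04 and their sum was at -0.03 (-0.05 to -0.01).

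**Figure D3:**
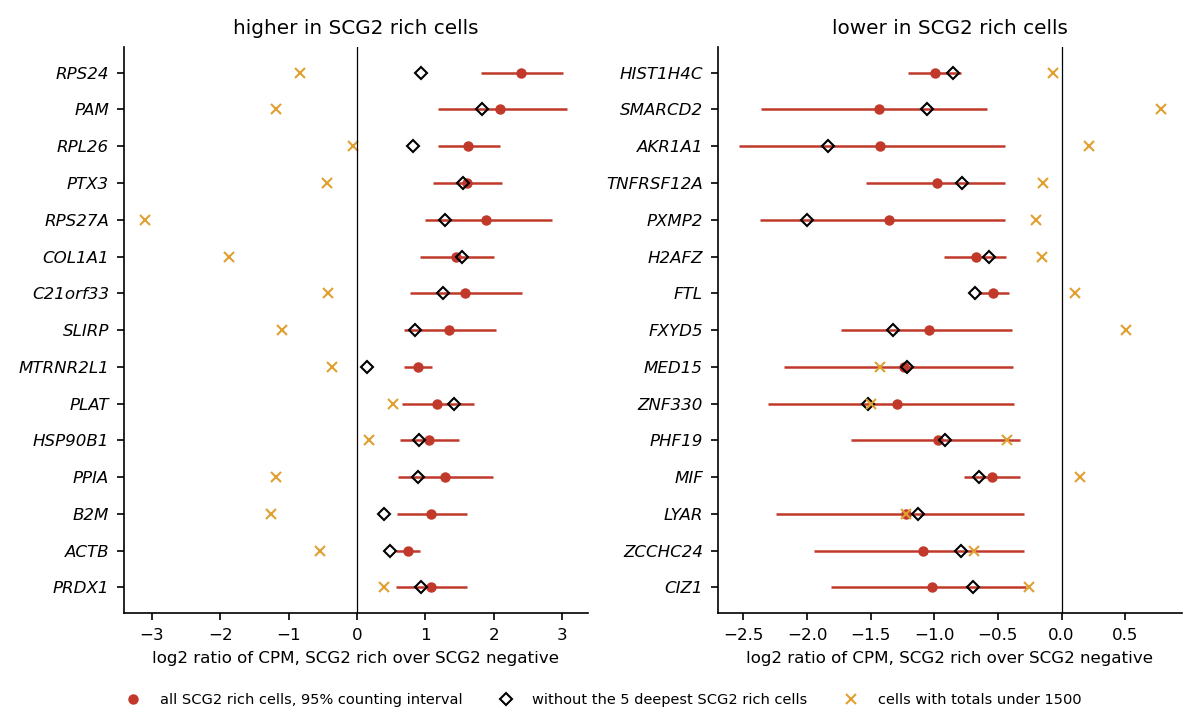
Log2 ratios of CPM, SCG2 rich over SCG2 negative cells, for the 15 genes named as higher and the 15 named as lower, with 95% counting intervals (red), the value without the 5 deepest SCG2 rich cells (diamonds) and the value in cells with totals under 1500 (crosses). The diamonds of all 30 genes keep the sign, from 0.14 for MTRNR2L1 upward on the left, while the crosses of 12 of the 15 genes on the left lie below 0.

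The 15 genes named as lower were chosen in the same way, by the lowest upper bounds. They were HIST1H4C, SMARCD2, AKR1A1, TNFRSF12A, PXMP2, H2AFZ, FTL, FXYD5, MED15, ZNF330, PHF19, MIF, LYAR, ZCCHC24 and CIZ1, with log2 ratios from -1.43 for SMARCD2 to -0.54 for FTL. SMARCD2 is a subunit of the SWI/SNF remodelling complex, MED15 of Mediator, and PHF19 of a Polycomb complex.

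Histone genes had the lowest sum among the lists. HIST1H4C, a replication-dependent histone H4 gene, had 1576 CPM in SCG2 rich cells, 3086 CPM between the groups and 3144 CPM in SCG2 negative cells, a log2 ratio of -0.997 (-1.20 to -0.79). Thinned cells had 0, 1 and 16 counts (lowest, median and highest) in SCG2 rich cells and 0, 2 and 20 in SCG2 negative cells. The groups overlap over nearly all of that range. A count was seen in 69.2% of SCG2 rich and 72.7% of SCG2 negative cells, so the difference lay in the height of the counts rather than in how many cells had one. H2AFZ, the H2A.Z variant, was at -0.68 (-0.92 to -0.43), with 1213 CPM in SCG2 rich and 1937 CPM in SCG2 negative cells.

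Of 9 histone genes with enough counts, 4 were lower by 1.5-fold or more, against 6.94% of all genes, and 0 were above 0. Their median was -0.53, against -0.02 over all genes. The other 2 of the 4 beside HIST1H4C and H2AFZ were HIST1H1C at -0.84 (-1.54 to -0.18) and H2AFX at -0.78 (-1.48 to -0.11). The variant H3F3B, which is made throughout the cell cycle, was at -0.12 (-0.39 to 0.16). Summed, the list was at -0.65 (-0.77 to -0.54), with -0.65 in each barcode set and -0.58 without the deep cells. The cells between the groups had 7845 CPM, near the 8359 CPM of SCG2 negative cells and above the 5323 CPM of SCG2 rich cells. In the cells under 1500 counts the list was at 0.03 (-0.15 to 0.21), an interval that includes 0.

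Other proliferation genes differed less. The G1/S list was at -0.13 (-0.30 to 0.03), with 0.12 in barcode set 1 and -0.43 (-0.67 to -0.19) in set 2, and at 0.36 (0.09 to 0.64) in the cells under 1500 counts. In it MCM3, a subunit of the replicative helicase, was at -0.79 (-1.56 to -0.06) and PCNA, the sliding clamp of DNA polymerases, at 0.24 (-0.41 to 0.88). The G2/M list was at -0.23 (-0.34 to -0.11), but this was 0.05 in barcode set 1, -0.59 in set 2, and -0.05 without the deep cells. Of 14 G2/M genes 1 was higher and 1 lower by 1.5-fold, against 6.74% and 6.94% of all genes. The 2 genes were CCNB2 at 0.63 (-0.19 to 1.45) and TACC3 at -0.97 (-1.86 to -0.14). G2/M genes were also higher in the deeper of the cells between the groups, by 0.44, and within 4 bins of total the list was at -0.12 between the groups.

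FTL, the ferritin light chain that stores iron, was the most abundant gene among the 15, in a row joint with DQ591443. It had 5150 CPM in SCG2 rich cells, 5609 CPM between the groups and 7466 CPM in SCG2 negative cells, a log2 ratio of -0.54 (-0.65 to -0.42). The median thinned cell had 6 counts in each of the groups, and the highest had 29 in SCG2 rich and 98 in SCG2 negative cells. The ratio was -0.77 in barcode set 1 and -0.09 in set 2, so it came mainly from the first set. Among the 12 tested genes of the iron and oxidative stress list, MT2A, a metallothionein, was at -0.54 (-0.83 to -0.24) and FTH1, the ferritin heavy chain, at -0.32 (-0.68 to 0.04). Of the 12, PRDX1 was the 1 gene higher and 0 were lower by 1.5-fold, against 6.74% and 6.94% of all genes. MIF, a cytokine, was at -0.54 (-0.76 to -0.33), with -0.10 in set 1 and -1.07 in set 2. TNFRSF12A, the receptor of TWEAK, was at -0.98 (-1.54 to -0.44), and 23.1% of SCG2 rich against 48.5% of SCG2 negative cells had a count.

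Genes of the matrix and of the mesenchymal state of neuroblastoma did not move as 1 block. Of 13 matrix genes 5 were higher and 0 lower by 1.5-fold, against 6.74% and 6.94% of all genes, with a median of 0.47. Beside COL1A1 these were ITGB1, an integrin subunit, at 0.92 (0.24 to 1.61), BGN, a proteoglycan, at 0.84 (0.25 to 1.44), LOXL2, a collagen cross-linking enzyme, at 0.68 (-0.04 to 1.41), and COL6A1 at 0.62 (-0.18 to 1.43). Without the deep cells BGN was at 0.23 and COL6A1 at -0.01. The 3 most counted matrix genes did not pass 1.5-fold. They were SPARC at 0.32 (0.10 to 0.54), TIMP1 at 0.03 (-0.26 to 0.32) and SERPINH1 at 0.31 (-0.03 to 0.65). Without the deep cells SPARC was at 0.20 (-0.05 to 0.45) and SERPINH1 at 0.05 (-0.36 to 0.44). The matrix sum was at 0.41 (0.30 to 0.52) in the groups but at -0.25 (-0.46 to -0.04) in the cells under 1500 counts.

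VIM, the mesenchymal intermediate filament, was at 0.34 (0.23 to 0.46) and CD44, a hyaluronan receptor, at 0.68 (0.07 to 1.30). AXL, a receptor tyrosine kinase of the mesenchymal state, was at -0.70 (-1.19 to -0.22). The list of mesenchymal regulators and markers summed to 0.20 (0.10 to 0.29). It was at 0.35 in barcode set 1 and 0.02 in set 2, and at -0.01 (-0.17 to 0.15) in the cells under 1500 counts. Of its 7 tested genes 1 was higher and 2 were lower by 1.5-fold, against 6.74% and 6.94% of all genes. The adrenergic regulators summed to 0.29 (0.03 to 0.55), with 0.36 (0.07 to 0.64) without the deep cells and 0.08 (-0.37 to 0.52) in the cells under 1500 counts. Their sum was at 0.41 (0.03 to 0.78) in barcode set 1 and 0.15 (-0.23 to 0.52) in set 2. Of these regulators, the transcription factors HAND2, GATA2 and GATA3 were at 0.50 (-0.11 to 1.10), 0.56 (-0.04 to 1.16) and 0.37 (-0.45 to 1.17), all with intervals that include 0. TBX2, the most counted of the 4 tested, was at -0.07 (-0.59 to 0.43). TUBB3, a neuronal tubulin, was at 0.91 (0.35 to 1.48) with the deep cells and -0.19 without them.

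The regulated exocytosis list, which holds the vesicle fusion machinery, summed to 0.38 (0.05 to 0.72), with 0.47 (0.10 to 0.83) without the deep cells and 0.09 (-0.40 to 0.57) in thinned cells. Its 2 genes with enough counts were SV2A, a synaptic vesicle protein, at 0.22 (-0.57 to 1.01) and CYB561, a cytochrome of secretory vesicles, at 0.10 (-0.59 to 0.78). Of 21 genes of endoplasmic reticulum translocation and Golgi export, 3 were higher and 1 lower by 1.5-fold, against 6.74% and 6.94% of all genes, with a median of 0.11. The 3 were SAR1A, a coat GTPase, at 0.98 (0.13 to 1.86), TMED10, a cargo receptor, at 0.80 (0.03 to 1.59), and COPB1, a COPI coat subunit, at 0.66 (-0.12 to 1.45). SRP9, of the signal recognition particle, was at -0.80 (-1.41 to -0.23). The translocation and export list summed to 0.06 (-0.04 to 0.15), and to -0.13 (-0.29 to 0.03) in the cells under 1500 counts. Of 16 lysosome and V-ATPase genes 3 were higher and 0 lower, beside the same shares of all genes. Among them PSAP, the saposin precursor, was at 0.68 (0.28 to 1.07) and remained at 0.69 (-0.04 to 1.41) in the cells under 1500 counts. CD63 and NPC2, also among the 3 most counted, were at -0.12 (-0.35 to 0.12) and -0.18 (-0.66 to 0.29). In the cells under 1500 counts CD63 was at 0.20 (-0.19 to 0.58) and NPC2 at -1.20 (-2.12 to -0.37). The lysosome list summed to 0.10 (-0.01 to 0.22), and to -0.01 (-0.14 to 0.13) without the deep cells. Respiratory chain genes (46 tested) were at 0.02 (-0.03 to 0.07) and heat shock genes (12 tested) at 0.00 (-0.08 to 0.08).

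**Figure D4:**
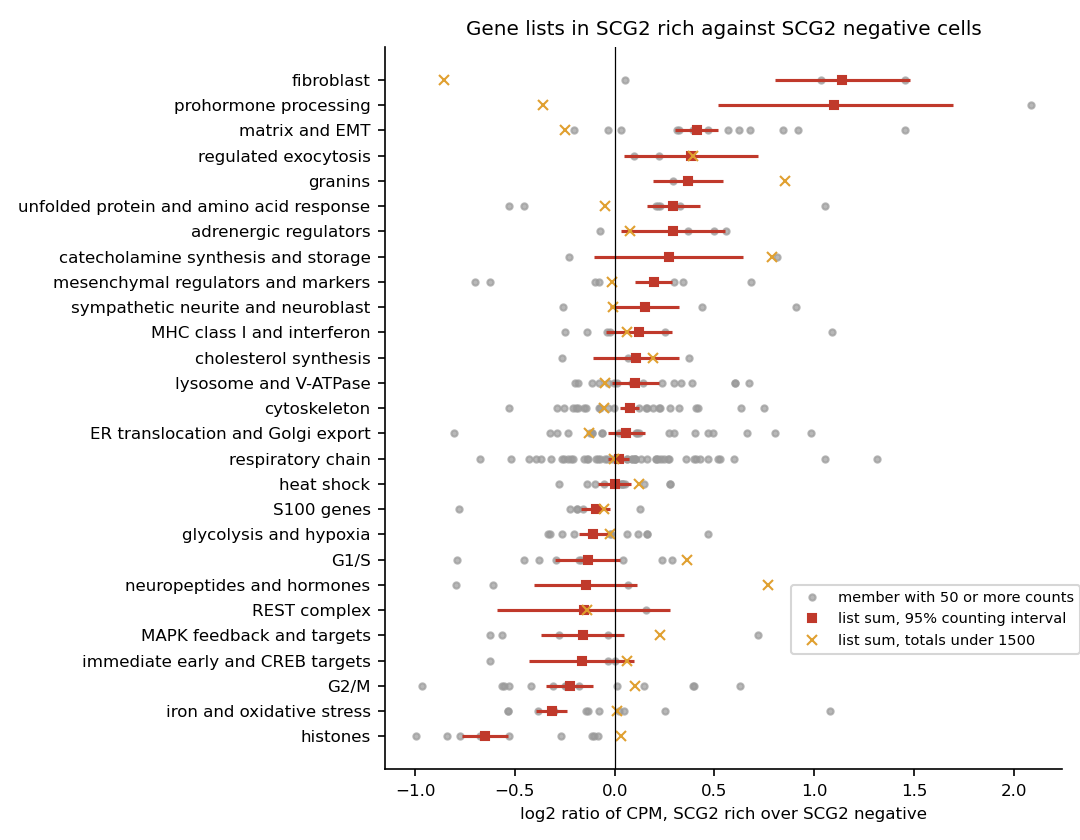
Log2 ratios of CPM, SCG2 rich over SCG2 negative cells, for each gene list with at least 1 gene of 50 or more counts: grey points are genes, red squares list sums with 95% counting intervals, and crosses the sums in cells with totals under 1500. Histones have the lowest sum at -0.65, the fibroblast list the highest at 1.14, and the granin list is above 0 both in the groups (0.37) and in the cells under 1500 counts (0.85).

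Markers of other cell types were looked at in the same groups. The fibroblast list, which shares COL1A1 with the matrix list, was higher by 1.14 (0.80 to 1.48), with 1136 CPM in SCG2 rich, 633 CPM between and 515 CPM in SCG2 negative cells. COL3A1 had 29 counts in SCG2 rich and 10 in SCG2 negative cells, DCN had 34 and 23, and PDGFRA had 9 and 2. LUM was even at 0.05 (-0.68 to 0.77), and COL1A2, a partner chain of COL1A1, had 0 counts in all 603 cells. In the cells under 1500 counts the list was at -0.85 (-1.61 to -0.15), although DCN was at 1.41 (-0.13 to 3.04). Of 8 immune markers only PTPRC had counts in the groups, with 9 in SCG2 rich and 2 in SCG2 negative cells. Endothelial, adrenal cortex and erythroid markers had 0 counts in both groups, and Schwann cell precursor markers had 0 in SCG2 rich and 1 in SCG2 negative cells. The part of these markers in the other ratios was not tested.

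The cells under 1500 counts give the same contrast in cells that chose none of the named genes. There, 47.7% of the 1514 genes were above 0 and 52.3% below. Of the 15 genes named as higher, 3 were above 0 (PLAT, HSP90B1 and PRDX1), and of the 15 named as lower, 10 were below 0. For 0 of the 30 genes did the interval lie beyond 0 in the named direction, while those of COL1A1 at -1.88 (-3.40 to -0.63), RPS27A at -3.10 (-8.49 to -0.42), B2M at -1.26 (-2.49 to -0.19) and ACTB at -0.54 (-0.94 to -0.15) lay wholly on the other side. These cells are thinly counted, with 51326 counts in SCG2 rich and 95272 in SCG2 negative cells, and an SCG2 rich cell there needs only 2 SCG2 counts.

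Within the groups themselves the named genes were steadier, as their choice would lead to. All 15 genes named as lower kept the direction in both barcode sets, and of the 15 named as higher 15 did so in set 2 and 14 in set 1, where MTRNR2L1 was at -0.03. Without the deep cells 12 of the 15 higher and 14 of the 15 lower genes stayed past 1.5-fold. In thinned cells 12 of the 15 higher and 11 of the 15 lower genes were past 1.5-fold, against 8.85% and 10.7% of all 1514 genes. When levels were compared within 4 bins of total, 6.61% of all genes were higher and 7.4% lower by 1.5-fold, and all 30 genes kept their direction. In the cells between the groups, the deeper cells were above the shallower ones for 7 of the 15 higher genes, against 51.8% of all genes, and below them for 5 of the 15 lower genes, against 48.2%. The level between the groups lay between the other 2 levels for all 30 genes, against 21.5% and 25.6% of all genes in the rising and the falling order, and choosing genes far apart makes that order likely.

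**Figure D5:**
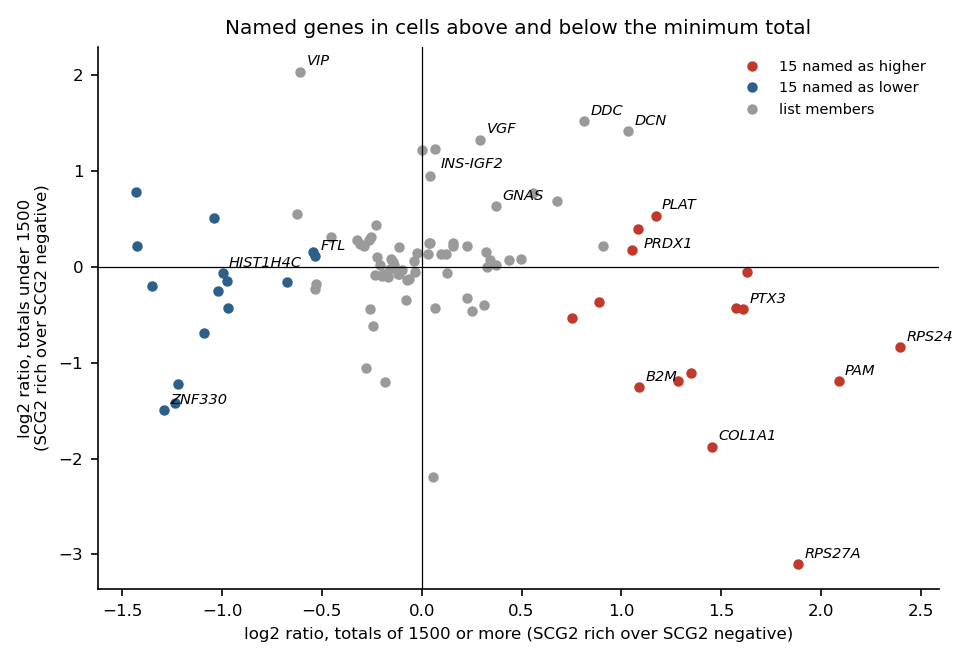
Log2 ratio of CPM in SCG2 rich over SCG2 negative cells with totals of 1500 or more (horizontal) against the same ratio in cells with totals under 1500 (vertical), 1 point per gene, for the 30 named genes and list members with 50 or more counts. GNAS, VGF, DDC and DCN lie above 0 on both axes, whereas COL1A1 and RPS27A lie to the right at 1.45 and 1.88 but below 0 at -1.88 and -3.10.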

How the data were processed

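The deposited table gives raw counts for each gene in each cell, as whole numbers. The sources used here do not say if a count is a molecule or a read, nor which counter and annotation made it. The submitters' processing notes name Bowtie2 2.1.0 and hg19. A row that names no gene held 2 counts (0.00013%) and was left out of totals. Cells were taken by column position, because 239 of 364 barcodes occur in both barcode sets. No doublet caller was run, since cells were sorted singly into wells.

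Counts were summed per group (Python 3.11.15), scaled to CPM without SCG2, and compared as log2 ratios with exact binomial (Clopper-Pearson) intervals at 95%. Thinning to 1500 counts was without replacement. Alternatives included TMM (edgeR 4.0.16) and median-of-ratios (DESeq2 1.42.0) scaling, used for factors only. The ratio step was tested on simulated data, in which all cells of a group shared the same profile. Spread between cells was therefore not part of that test. The 30 named genes are those with the 15 highest lower and 15 lowest upper interval bounds. Apart from these 30, values in all settings were computed for the 3 most counted genes of each of 34 lists, where they had counts. For the other list members only the ratio in the groups and without the deep cells was computed. Several of those are named because they passed 1.5-fold. The members and lists were chosen with earlier results of these data known. Promoter windows matched 21 of the 30 named genes by symbol.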

Additional observations from a re-analysis of the deposited data

How the results depend on the processing

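With 1 pool of cells a group, depth limits what can be seen: most genes have under 50 counts, and intervals cover counting error only. The count of genes higher by 1.5-fold or more was 102 and that of lower genes 105. Thinned cells gave 42 higher and 57 lower genes of 815 with enough counts. Barcode set 1 alone gave 36 and 41, and set 2 alone 61 and 61. A minimum of 25 counts gave 304 and 336, a minimum of 100 counts 30 and 23, no minimum 3030 and 3078, and a 2-fold limit 28 and 19. Groups formed from thinned counts gave 189 lower genes. Fewer or more genes are tested under these settings by construction, except the 2-fold limit. The other settings stayed within 1.5 times. Among named genes with a ratio of 1.5-fold or more, 9 values changed sign, while sign changes of genes with smaller ratios are not listed. MTRNR2L1 was at -0.033 in barcode set 1. With SCG2 rich set at 0.2%, B2M was at -0.19 and DCN at -0.0565. VIP was at 0.012 with totals of 1000 or more. GCG was at 0.24 by the mean of cell fractions, 0.13 with SCG2 rich at 0.1% and 0.12 in set 1. TUBB3 was at -0.19 without the 5 deep SCG2 rich cells and -0.37 within 4 bins of total. The cause was not tested. Leaving out deep cells and the bins of total were added after seeing the data. No paired analysis was possible because the columns carry no sample or replicate number, and for the same reason no replicate was left out.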
